A study of Mus musculus with 6 samples.

Results

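The genes described here are 32 genes of cholesterol synthesis, uptake and efflux in mouse heart, chosen by gene symbol from the enzymes of the mevalonate and sterol pathway, the SREBP control system, receptors for lipoproteins, carriers of cholesterol inside the cell, and the LXR receptors with the pumps they control. Of these, 31 have a row of their own among the 23792 gene rows, and Tm7sf2 is given only together with its neighbour Vps51. RNA was sequenced from heart ventricles of male C57BL/6-FVB mice, 6 to 8 weeks old, with 3 mice on doxycycline (control) and 3 mice whose doxycycline had been withdrawn for 3 days (HIF-PPN). All of the mice carried a tetracycline transactivator driven by the αMHC promoter, which is active in cardiomyocytes, and a HIF1α transgene with substitutions that keep the protein stable in normal oxygen. Doxycycline kept the transgene off in control hearts, so the presence of the drug and the absence of HIF-PPN cannot be told apart. Levels are given in FPKM, the number of fragments for each kilobase of a transcript relative to all mapped fragments, which allow levels to be compared between genes, and the authors merged the 3 mice of each group into 1 value. No spread between mice, read count or depth stands behind a value here, so each difference is a description without a test or a replicate check. Where a pair of values is given, the control value comes first. Because whole ventricle was sequenced, fewer cells of a type and less RNA per cell cannot be told apart.

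Cholesterol is built from acetyl-CoA through mevalonate and the isoprenoid farnesyl pyrophosphate, units of which join to squalene, the first step committed to sterols. Squalene is oxidised, closed into lanosterol and trimmed to cholesterol. When sterols in the endoplasmic reticulum are scarce, the protein Scap escorts the membrane-bound factors SREBP1 and SREBP2 to the Golgi, where they are cut and released to switch on synthesis and uptake genes, and the Insig proteins hold Scap back when sterols are plentiful. A surplus of oxysterols activates the LXR receptors, which raise efflux pumps and lower receptor-mediated uptake. Several of these steps use molecular oxygen, and hypoxia and HIF1 are known to act on the pathway in liver and other tissues.

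Promoter sequences from RefSeq (GRCm38.p6) were matched by symbol for 25 of the 32 genes, in 35 windows of 300 bases that begin 250 bases upstream of a start site. The genes without a window were Abcg1, Fdft1, Fdps, Npc1, Scarb1, Sqle and Stard4. Sequences are shown for the SREBP2 target Hmgcs1, for Insig1, which is controlled by SREBP as well, for Vldlr as the most abundant gene of the set, and for Lss as the gene with the largest downward difference. Each of 3 short motifs was searched on both strands. The sterol regulatory element, TCACNCCAC, is a binding sequence of SREBP, CCAAT is the box of NF-Y, which acts together with SREBP, and ACGTG is the core of the hypoxia response element bound by HIF1. The last of these overlaps the E-box CACGTG, which reads the same on both strands and counts as 2 matches. The 250 bases upstream of the start are given for Hmgcs1 (chr13:119690101-119690350), Insig1 (chr5:28071162-28071411), Vldlr (chr19:27216770-27217019) and Lss (chr10:76531355-76531604), all on the plus strand and 5′ to 3′, with matches to any of the motifs in capitals.
Hmgcs1: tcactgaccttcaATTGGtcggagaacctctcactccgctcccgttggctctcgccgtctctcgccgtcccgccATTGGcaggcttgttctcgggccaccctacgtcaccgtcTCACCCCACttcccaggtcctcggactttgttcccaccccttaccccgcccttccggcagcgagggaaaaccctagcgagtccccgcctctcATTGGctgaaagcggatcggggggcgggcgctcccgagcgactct
Insig1: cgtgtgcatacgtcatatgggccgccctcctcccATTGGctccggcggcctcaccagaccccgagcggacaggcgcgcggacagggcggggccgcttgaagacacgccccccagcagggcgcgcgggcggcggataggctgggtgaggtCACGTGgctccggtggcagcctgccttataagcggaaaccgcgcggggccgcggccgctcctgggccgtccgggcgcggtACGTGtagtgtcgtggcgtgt
Vldlr: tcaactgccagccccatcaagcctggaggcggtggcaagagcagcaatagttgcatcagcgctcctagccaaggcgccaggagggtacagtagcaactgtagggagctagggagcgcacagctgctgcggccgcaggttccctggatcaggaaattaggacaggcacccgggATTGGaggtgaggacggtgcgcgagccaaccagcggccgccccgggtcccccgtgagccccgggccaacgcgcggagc
Lss: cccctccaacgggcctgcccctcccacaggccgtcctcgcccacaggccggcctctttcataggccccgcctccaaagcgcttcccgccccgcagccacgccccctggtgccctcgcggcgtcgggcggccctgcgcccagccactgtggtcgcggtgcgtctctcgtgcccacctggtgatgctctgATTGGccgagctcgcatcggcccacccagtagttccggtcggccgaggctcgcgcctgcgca
Hmgcs1 was the 1 gene of the 25 with a match to TCACNCCAC, which was present in 1.24% of all 32851 promoter windows, and the match begins 137 bases before its start site. CCAAT was found in 20 of the 35 windows (57.1%, against 37.4% of all windows) and ACGTG in 6 (17.1%, against 19.6%). The genes with ACGTG were Abca1, Dhcr7, Hsd17b7, Insig1 and Scap, and their log2 ratios of HIF-PPN to control FPKM lay between −0.21 and 0.13. The 18 genes with CCAAT and a row of their own ranged from −0.66 to 0.41, with a median of −0.039, and the other 6 had a median of 0.046. A match of letters describes the sequence and is no evidence of binding. For the sterol regulatory element only TCACNCCAC was searched. The lack of a match is therefore no evidence that a gene lacks such an element.

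In HIF-PPN hearts the cholesterol genes as a group stood close to their control levels and shared no direction. Expression was called where either group had at least 1 FPKM, which 30 of the 31 genes reached (Idi1 did not). Of these, 16 were higher and 14 lower in HIF-PPN hearts, where 52.1% of 12098 expressed genes were higher. Their median log2 ratio (HIF-PPN over control, with no pseudocount) was 0.027, with quartiles of −0.13 and 0.28, beside 0.012, −0.16 and 0.20 over all expressed genes. The sign of this median is not stable, since it was −0.0026 when genes under 3 FPKM in either group were left out. A difference under 0.32 on the log2 scale (a ratio of 5 to 4) in either direction was seen in 22 of the 30, or 73.3%, and in 74.0% of all expressed genes. Acat2 and Fdps were at least 1.5-fold higher, as were 5.42% of expressed genes, and Lss was at least 1.5-fold lower, as were 4.00%. With a pseudocount of 1 FPKM the count past 1.5-fold was 0 in either direction. None of the 30 differed by 2-fold or more, a size reached by 2.11% of expressed genes upwards and 1.09% downwards. At 0.32 on the log2 scale 6 were higher (Acat2, Fdps, Abcg1, Sqle, Mvk and Npc1) and 2 lower (Lss and Vldlr), against backgrounds of 14.4% and 11.6%. In a set of 30 genes these counts lie near the background shares, and nothing particular to the set was read from them.

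**Figure D1:**
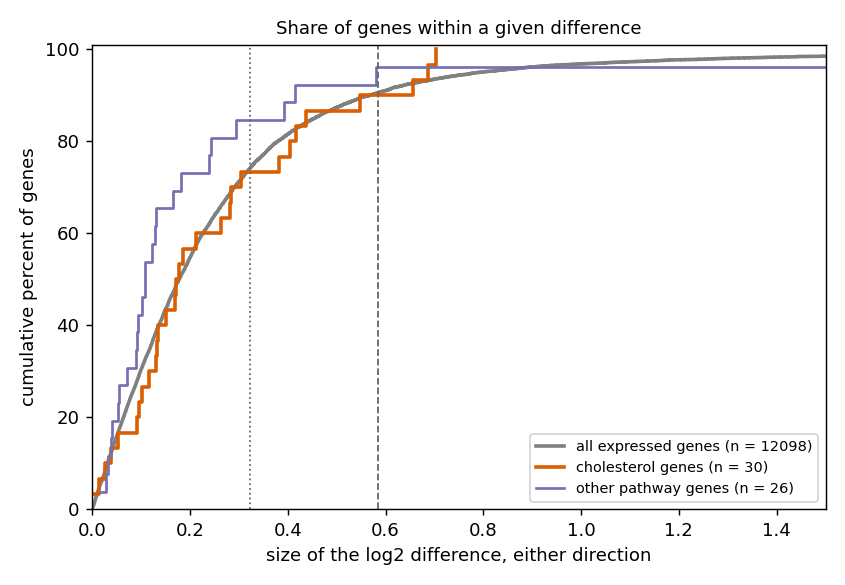
Cumulative percent of genes (y axis) whose log2 difference between HIF-PPN and control, in either direction, is no larger than the value on the x axis. The dotted and dashed lines mark 0.32 on the log2 scale and 1.5-fold, and the curve of the 30 expressed cholesterol genes runs along that of all 12098 expressed genes, with 73.3% and 74.0% inside 0.32. The third curve shows the 26 expressed genes of the further pathway list.

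The order of levels was mostly kept at the top and shifted in the middle. Vldlr was the most abundant of the 31 genes in both groups, followed by Insig2, and the same 5 genes (Vldlr, Insig2, Npc2, Nr1h2 and Hmgcs1) occupied the highest places in both. At the lower end stood Idi1, Sqle, Lss, Abcg1, Fdps and Acat2, all under 3 FPKM in both groups. Npc2 and Nr1h2 exchanged places between the groups, and larger moves were seen in the middle, where Srebf2 went from place 12 to 18, Ebp from 13 to 17, Pmvk from 16 to 11 and Nr1h3 from 18 to 14. Several genes there lie close together in level, and whether neighbours in this order differ cannot be judged without the spread between mice.

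**Figure D2:**
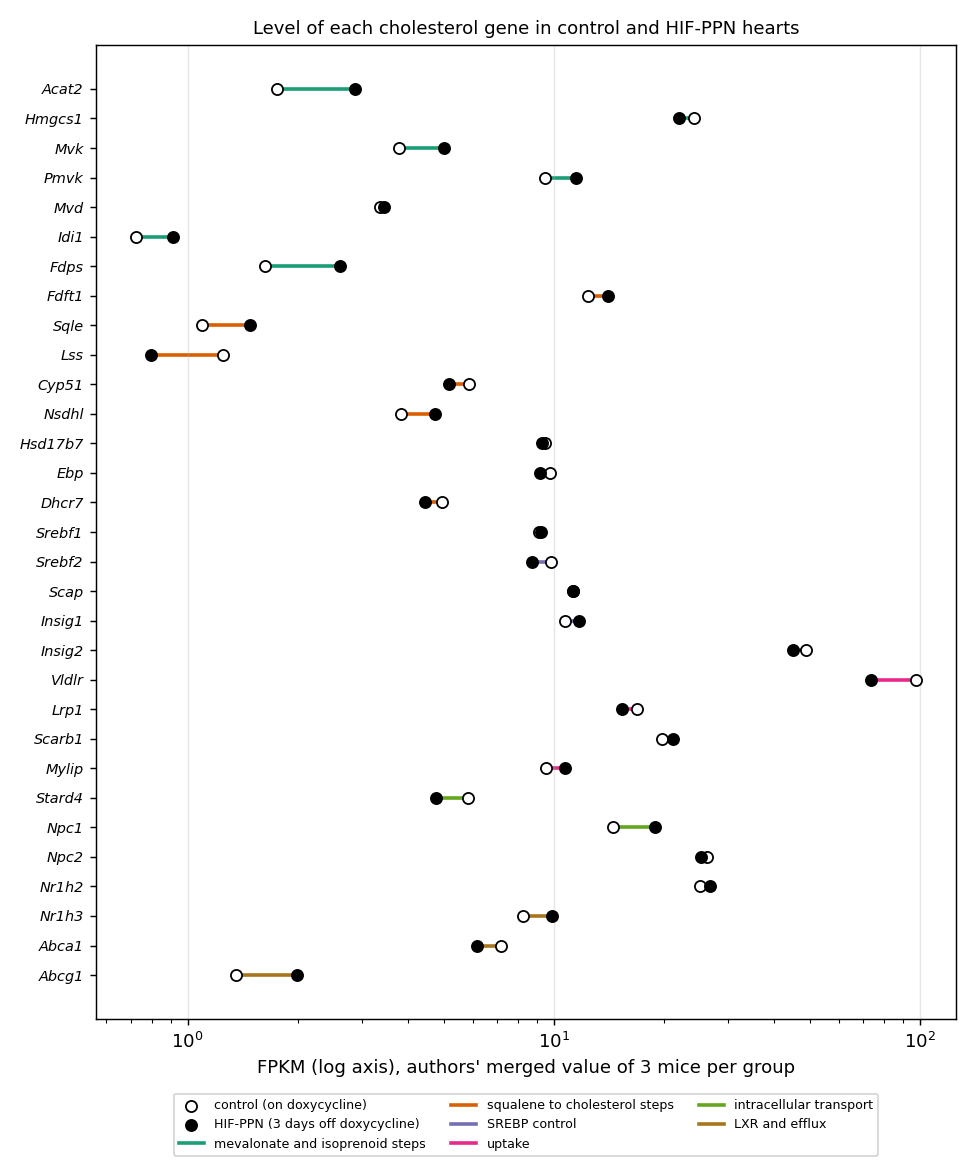
FPKM of each of the 31 genes (x axis, log scale) in control hearts (open circles) and HIF-PPN hearts (filled circles), 1 merged value of 3 mice per group. The line colour gives the role. Most pairs of circles nearly touch, and the wider gaps lie among the genes of low level and at Mvk, Npc1 (14.5 and 18.9 FPKM) and Vldlr (97.9 and 73.4 FPKM).

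Among the enzymes from acetyl-CoA to farnesyl pyrophosphate, 5 of 6 expressed genes were higher, with a median log2 ratio of 0.34, beside 52.1% and 0.012 over all expressed genes. In a group of 6 genes this is a description and no more. Acat2, the cytosolic thiolase that joins acetyl-CoA units (chromosome 17 of mm10, 12943042 to 12960725), had 1.76 FPKM in controls and 2.86 FPKM with HIF-PPN, 1.63-fold higher (log2 ratio 0.70). Acat2 overlaps the gene model Gm20591 in the annotation. Its tandem copy Acat3, with which it may share reads, was at 0.0389 FPKM in control hearts and listed at 0 in HIF-PPN hearts. Fdps, the synthase of farnesyl pyrophosphate (chromosome 3, 89093588 to 89101967), was at 1.62 and 2.61 FPKM, 1.61-fold higher (log2 ratio 0.69). These 2 genes had the largest upward differences of the whole set, and 6.45% and 6.80% of all expressed genes differed by as much. Mevalonate kinase Mvk was at 3.78 and 5.003 FPKM (log2 ratio 0.41) and phosphomevalonate kinase Pmvk at 9.44 and 11.5 FPKM (0.28). The next enzyme, the decarboxylase Mvd, was nearly level at 3.34 and 3.43 FPKM (0.038). Idi1, the isomerase of isopentenyl pyrophosphate, stayed under the 1 FPKM filter at 0.721 and 0.910 FPKM (0.34), and its paralog Idi2 was at 0.0296 and 0.0199 FPKM. The exception in direction was Hmgcs1, which makes HMG-CoA and is a standard SREBP2 target with the TCACNCCAC match shown above, at 24.2 FPKM in controls and 22.1 FPKM with HIF-PPN (log2 ratio −0.13). Hmgcs1 was the most abundant enzyme of the set, so the summed level of these 7 genes was 44.8 FPKM in controls and 48.4 FPKM with HIF-PPN (log2 ratio 0.11), a smaller difference than the median of the single genes.

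From squalene onwards the differences went both ways. Of 8 genes with a row, 3 were higher and 5 lower (median log2 ratio −0.058), where 52.1% of all expressed genes were higher. The summed level of the 8 genes was 48.6 FPKM in controls and 49.2 FPKM with HIF-PPN. Squalene synthase Fdft1 was at 12.4 and 14.1 FPKM (log2 ratio 0.18), and its position in the files also spans Ctsb, a cathepsin gene at 173 and 164 FPKM. Squalene epoxidase Sqle, the first oxygen-requiring step, was at 1.09 and 1.48 FPKM (0.44). Lss, lanosterol synthase, which acts right after Sqle, had the largest downward difference of the set: it was at 1.249 FPKM in controls and 0.792 FPKM with HIF-PPN, 1.58-fold lower (log2 ratio −0.66). Lss (chromosome 10, 76531627 to 76562226) overlaps the non-coding gene 4930483K19Rik. Since Lss was under 1 FPKM in HIF-PPN hearts, it passed the filter through its control value alone. The neighbouring enzymes Sqle and Lss thus stood on opposite sides, and both are among the least abundant genes of the set.
The later enzymes were close to level, apart from Nsdhl. Cyp51, which removes a methyl group from lanosterol with the use of oxygen, was at 5.86 and 5.18 FPKM (log2 ratio −0.18). Nsdhl, a decarboxylating dehydrogenase, was at 3.84 and 4.74 FPKM (0.30), and Hsd17b7, the ketoreductase that follows, at 9.45 and 9.29 FPKM (−0.026). The isomerase Ebp was at 9.79 and 9.19 FPKM (−0.091), and Dhcr7, which catalyses a last reduction to cholesterol, at 4.95 and 4.46 FPKM (−0.15). All 5 of these later enzymes lay within 0.32 on the log2 scale, as did 74.0% of all expressed genes. The joint row of the sterol reductase gene Tm7sf2 and Vps51, a subunit of a vesicle tethering complex, was at 7.60 and 9.20 FPKM (0.28) and cannot be divided between the genes.

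**Figure D3:**
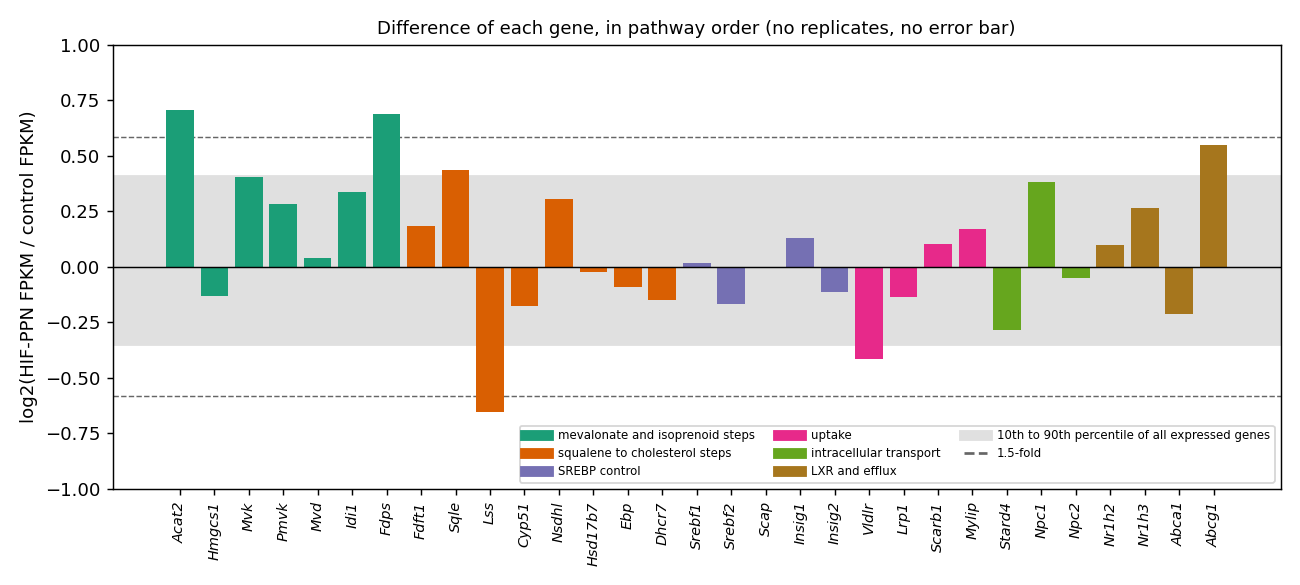
Log2 ratio of HIF-PPN to control FPKM (y axis) for each of the 31 genes in pathway order (x axis), coloured by role, and bars carry no error because each group has 1 merged value. The grey band spans the 10th to 90th percentile of all expressed genes (−0.35 to 0.41) and the dashed lines mark 1.5-fold, which Acat2 and Fdps pass upwards and Lss downwards.

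The regulators of the pathway were the most level of the 6 roles, with log2 ratios from −0.17 to 0.13. All 5 genes of SREBP control lay within 0.32 on the log2 scale of their control level, as did 74.0% of all expressed genes. The median log2 ratio of the 5 was −0.0026, beside 0.012 over all expressed genes, and so few genes allow a description only. Srebf2, which encodes the SREBP of cholesterol synthesis, was at 9.83 FPKM in controls and 8.74 FPKM with HIF-PPN (log2 ratio −0.17). Srebf1, which encodes the SREBP isoforms of fatty acid and sterol genes, was at 9.14 and 9.23 FPKM (0.015), at a locus it shares with Rai1 (5.54 and 5.71 FPKM). Scap was at 11.3 FPKM in both groups (−0.0026). Insig1, itself an SREBP target whose level follows SREBP activity and whose upstream sequence holds CCAAT and ACGTG, was at 10.7 and 11.7 FPKM (0.13). Insig2, which retains Scap as Insig1 does and is known as a HIF1 target in liver, was at 48.7 and 45.0 FPKM (−0.12). Insig2 was thus the main Insig gene of the ventricle, 4.55 times the level of Insig1 in control hearts and 3.84 times in HIF-PPN hearts. RNA levels do not show how much SREBP was cut and active.

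An intron of Srebf2 holds Mir33, whose product is known to repress Abca1, and its mature sequence is given here with the seed (bases 2 to 8) in capitals, from RefSeq (GRCm38.p6, chr15:82198127-82198147, plus strand).
miR-33-5p: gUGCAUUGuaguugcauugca
Mir33 was listed at 0 in both groups. The libraries were enriched for poly A RNA, which does not capture mature miRNAs, so this value says nothing of the miRNA.

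Among the receptors, Vldlr stood out by its level and by the size of its difference. Vldlr, a receptor for triglyceride-rich lipoproteins that is abundant in heart and known as a HIF1 target in hypoxic cardiomyocytes, lies on chromosome 19 of mm10 from 27217020 to 27254231. It was at 97.9 FPKM in controls and 73.4 FPKM with HIF-PPN, 1.33-fold lower (log2 ratio −0.42), and 17.3% of expressed genes differed by as much. Vldlr, whose upstream sequence shown above holds 1 CCAAT, was thus the most abundant gene of the set and the lowest in ratio after Lss. Lrp1, a large receptor for lipoprotein remnants and many other ligands, was at 16.8 and 15.3 FPKM (−0.14). Scarb1, the HDL receptor SR-B1, was at 19.8 and 21.2 FPKM (0.10). Mylip, the LXR-induced ubiquitin ligase that sends lipoprotein receptors, the VLDL receptor among them, to degradation, was at 9.51 and 10.7 FPKM (0.17). The summed level of these 4 genes was 144 FPKM in controls and 121 FPKM with HIF-PPN, and without Vldlr it was 46.1 and 47.3 FPKM. Vldlr therefore accounts for the lower sum.

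Inside the cell, the lysosomal cholesterol carriers differed from each other. Npc1, the membrane protein that passes cholesterol out of lysosomes, was at 14.5 and 18.9 FPKM, 1.30-fold higher in HIF-PPN hearts (log2 ratio 0.38). Its partner Npc2, the soluble protein that hands cholesterol to Npc1, was nearly level at 26.2 and 25.3 FPKM (−0.052). In the files the Npc1 row shares its locus with 3110002H16Rik (Rmc1 in RefSeq), at 14.7 and 14.4 FPKM. Stard4, a soluble sterol carrier and SREBP2 target, was at 5.82 and 4.77 FPKM (−0.28). The level of Npc2 relative to Npc1 was 1.81 in control and 1.34 in HIF-PPN hearts.

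Of the LXR receptors and their efflux pumps 3 of 4 were higher, with a median log2 ratio of 0.18, beside 52.1% and 0.012 over all expressed genes. In a group of 4 genes no direction can be read from this. Nr1h2 (LXRβ), the widely expressed receptor, was at 25.03 and 26.7 FPKM (log2 ratio 0.095), and Nr1h3 (LXRα), the form prominent in liver, fat and macrophages, at 8.23 and 9.88 FPKM (0.26). The annotation of Nr1h3 overlaps that of Acp2 (10.9 and 10.5 FPKM). Both efflux pumps are LXR targets, and they stood on opposite sides. Abca1, which loads cholesterol onto lipid-poor apolipoprotein A-I, was at 7.16 FPKM in controls and 6.18 FPKM with HIF-PPN (−0.21). Abcg1, which exports cholesterol to HDL, was at 1.36 and 1.98 FPKM, 1.46-fold higher (0.55), and 10.6% of expressed genes differed by as much. The level of Abca1 relative to Abcg1 was 5.27 in control hearts and 3.11 in HIF-PPN hearts.

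The largest relative differences lay among the least abundant genes. Differences spread more widely at low levels over the whole table. Of 2299 expressed genes with a mean under 3 FPKM, 26.0% differed at least 1.5-fold in either direction. The share was 7.57% from 3 to 10 FPKM, 4.10% from 10 to 30 FPKM and 4.35% at 30 FPKM or more. Of the 5 cholesterol genes with a mean under 3 FPKM, 3 differed at least 1.5-fold (Acat2, Fdps and Lss). The 25 genes above that level had none, and of these Vldlr lay lowest at −0.42 and Mvk highest at 0.41.

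**Figure D4:**
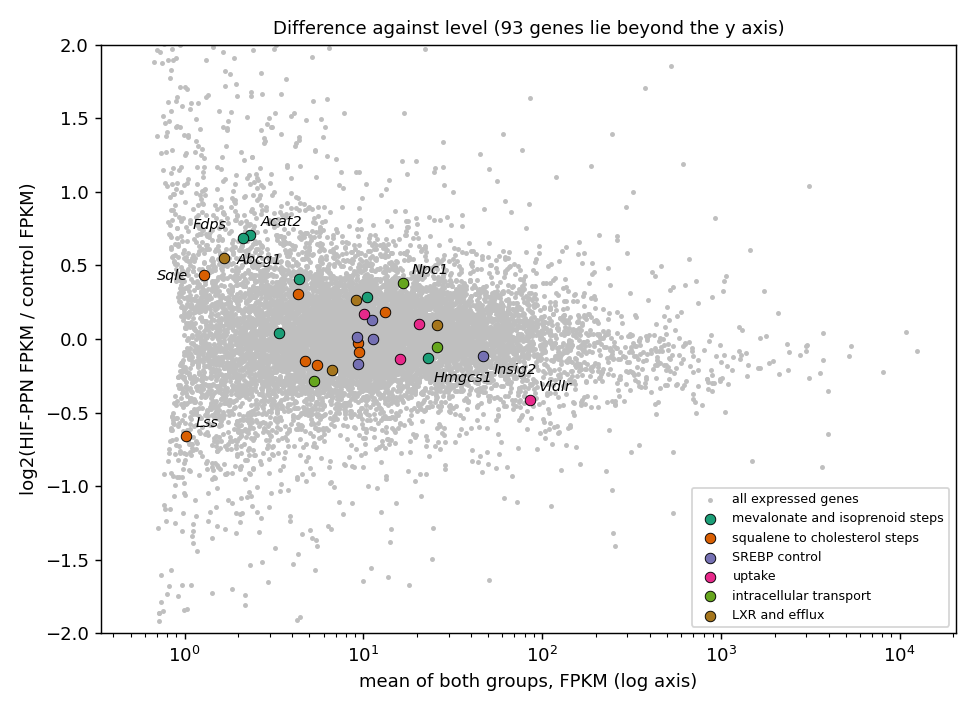
Log2 ratio of HIF-PPN to control FPKM (y axis) against the mean FPKM of both groups (x axis, log scale) for all 12098 expressed genes in grey and the 30 expressed cholesterol genes in colour by role, with 93 genes beyond the limits of the y axis. The grey cloud widens to the left, where Acat2, Fdps, Lss, Sqle and Abcg1 lie, and Vldlr is the most abundant coloured point.

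A further 28 genes of the pathway were examined as a list, covering other enzymes, SREBP processing, sterol carriers, storage and oxysterol synthesis. Of 26 expressed genes, 16 were higher and 10 lower (median log2 ratio 0.062), where 52.1% of all expressed genes were higher. Of the same genes 22 lay within 0.32 on the log2 scale (84.6%, against 74.0% of all expressed genes). Ch25h alone differed at least 1.5-fold, a size that 5.42% of all expressed genes reached upwards and 4.00% downwards. Ch25h, the enzyme that makes 25-hydroxycholesterol, was at 0.667 FPKM in controls and 3.11 FPKM with HIF-PPN, 4.66-fold higher (log2 ratio 2.22). Its control value was under the filter, so it could enter the counts only as a higher gene. Of the enzymes next to those above, Msmo1 of sterol demethylation was nearly level at 7.64 and 7.55 FPKM (−0.017). The desaturase Sc5d was at 13.98 and 17.1 FPKM, 1.23-fold higher (0.29). Of the enzymes that supply acetyl-CoA, Acly, which makes it from citrate, was at 13.1 and 17.2 FPKM (0.39), and Acss2, which makes it from acetate, at 21.1 and 20.7 FPKM (−0.028). The proteases that cut SREBP showed small differences, Mbtps1 at 18.9 and 19.6 FPKM (0.053) and Mbtps2 at 7.91 and 8.48 FPKM (0.10). Stard3, a sterol carrier of endosomes, was just under 1.5-fold at 13.8 and 20.7 FPKM (0.58). The LXR targets of this list went in both directions, with the phospholipid transfer protein gene Pltp at 25.1 and 18.8 FPKM (−0.41), Lpcat3 at 26.6 and 25.8 FPKM (−0.041) and Arl4c at 3.99 and 4.47 FPKM (0.17).

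Markers of cell types that also use these genes were read beside them. Markers of cardiomyocytes were abundant, with all 6 between 116 and 12804 FPKM, and they summed to 31090 and 28460 FPKM. All 6 were lower in HIF-PPN hearts (median log2 ratio −0.12), where 52.1% of all expressed genes were higher, with a median of 0.012. Ryr2 was the lowest of them in ratio, at 193 and 116 FPKM (−0.74), and the others lay between −0.22 and −0.039. The paper names Ryr2 among genes whose expression fell with HIF-PPN in earlier work, so its value need not follow the number of cardiomyocytes. Adipocyte markers were higher in 8 of 8 expressed cases (median 2.04), with Lep under the filter at 0.0623 and 0.336 FPKM. Of these markers, Plin1 (0.600 and 3.29 FPKM) and Retn (0.379 and 1.52 FPKM) were under the filter in controls. They could enter the count only as higher genes, so the count and the median are partly fixed by the filter. The adipocyte markers summed to 959.6 and 1326 FPKM. Most of this sum came from Fabp4 (916 and 1233 FPKM, log2 ratio 0.43) and Cidea (32.8 and 40.2 FPKM, 0.29). Fabp4 and Cidea had the smallest log2 ratios of the list, and without them the sum was 10.6 and 52.4 FPKM. Macrophage markers were lower in 8 of 8 cases (median −0.35), beside the same 52.1% higher and median of 0.012 over all expressed genes. The macrophage markers summed to 306 FPKM in controls and 261 FPKM with HIF-PPN. Endothelial markers summed to 336 and 335 FPKM and fibroblast markers to 799 and 707 FPKM. The 4 adrenal cortex markers summed to 1.47 and 1.59 FPKM, with Star at 1.40 and 1.47 FPKM, Cyp11a1 at 0.0740 and 0.120 FPKM, and Cyp21a1 and Hsd3b1 listed at 0 in both groups. The 3 liver markers summed to 0.904 and 1.67 FPKM, with Apoa2 at 0.837 and 1.49 FPKM (log2 ratio 0.83), Ttr at 0.0661 and 0.154 FPKM, and Alb listed at 0 in controls and at 0.0250 FPKM with HIF-PPN. The part of fat or macrophage RNA in the values of Acat2, Fdps, Abcg1, Nr1h3 and Ch25h was not tested, nor was that of the lower cardiomyocyte markers in the value of Vldlr.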

How the data were processed

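Poly A RNA from ventricles of 3 control and 3 HIF-PPN mice had been sequenced. The authors aligned reads with Tophat and Bowtie, quantified genes with Cufflinks and Cuffdiff (mm10 in their later analysis), and deposited FPKM with 1 merged value per group. The deposited log2 fold changes are the authors' own comparison and were not used. Here log2 ratios of HIF-PPN to control FPKM were computed without a pseudocount, for 12098 genes above 0 in both groups and with 1 FPKM or more in either. Of 22140 positions (1-based, mm10), 98.7% overlapped the RefSeq gene of that name on GRCm38.p6. Fragments of overlapping genes are hard to assign, and whether the libraries kept strand is not given in the sources used here. Depth is unknown, so no interval is given, and without replicates no test was made.

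The members and lists were chosen with earlier results of these data known. Every gene of the set is named, and of the further pathway genes those at least 1.5-fold different or next to a named step, apart from 1 that is counted but not reported here. Stard3, Acly, Acss2, Mbtps1, Mbtps2, Pltp, Lpcat3 and Arl4c were named after their values were seen. Alternatives were pseudocounts of 0.1 and 1 FPKM, other filters and fold thresholds, and centring on the median gene. Planned comparisons of protein sequences were not made. The arithmetic of the summaries was checked on control values multiplied by set factors, with no added spread, which says nothing of variation between mice. Software was python 3.11.15 with matplotlib 3.10.9, numpy 2.4.6 and pandas 2.3.3.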

Additional observations from a re-analysis of the deposited data

How the results depend on the processing

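Of 62 values recomputed under the alternatives, 50 kept their sign and stayed within 0.05 on the log2 scale for a median or within 1.5 times for a count. The count of cholesterol genes at least 1.5-fold higher was 0 with a pseudocount of 1 FPKM, 6 at a threshold of 0.32 on the log2 scale and 0 at a 2-fold threshold, and that of genes at least 1.5-fold lower was 0, 2 and 0 under the same settings. With 1 FPKM required in both groups Lss was left out, and the count of genes at least 1.5-fold lower was 0. The median of the mevalonate and isoprenoid steps was 0.29 with a pseudocount of 1 FPKM. Among alternatives chosen after seeing the data, 3 FPKM in both groups left 0 genes at least 1.5-fold higher and 0 lower and a median over the genes of −0.0026, and leaving out the genes that overlap another protein-coding gene gave a median of −0.014. The median of the set therefore has no stable sign. No paired analysis was possible because the deposited table holds 1 merged value per group, and for the same reason no mouse could be left out. Depth and replicate spread are unknown, which limits above all the genes under 3 FPKM.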

Other observations

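Farnesyl pyrophosphate also feeds branches that do not lead to cholesterol. A list of 12 genes of these branches, chosen after the data had been seen, was described in the same way, with no test. All 12 were expressed, and 6 were higher and 6 lower in HIF-PPN hearts, where 52.1% of all expressed genes were higher. The median log2 ratio of the 12 was 0.012, as it was over all expressed genes. Pdss1, a subunit of the synthase of the ubiquinone side chain, was at 13.8 FPKM in controls and 9.45 FPKM with HIF-PPN (log2 ratio −0.55), while its partner subunit Pdss2 was at 15.5 and 14.4 FPKM (−0.11). Coq2, which attaches that side chain to the ring of ubiquinone, was at 35.6 and 45.3 FPKM (0.35). Dhdds, a subunit of the enzyme that makes dolichol precursors, was at 13.0 and 17.1 FPKM (0.40), and its partner Nus1 at 24.9 and 24.4 FPKM (−0.026). Among genes of protein prenylation, the shared farnesyl and geranylgeranyl transferase subunit gene Fnta was at 51.3 and 48.6 FPKM (−0.080), Fntb at 5.04 and 5.39 FPKM (0.099) and Pggt1b at 14.9 and 12.0 FPKM (−0.31). The Rab transferase subunit genes Rabggta and Rabggtb were at 7.47 and 8.07 FPKM (0.11) and at 70.3 and 67.2 FPKM (−0.063). Icmt, which methylates prenylated proteins, was at 17.05 and 19.7 FPKM (0.21), and the protease gene Zmpste24 at 27.1 and 28.1 FPKM (0.051).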
